A study of Mus musculus with 6 samples.

Results

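Melanocyte lineage genes were described in RNA from sorted mouse hair follicle cells. The 10 genes were Dct, Tyr, Tyrp1, Mlana, Pmel, Mitf, Kit, Sox10, Ednrb and Mc1r, and they were taken by name: every array probe whose RefSeq accession maps to one of these symbols was included. This gave 14 of the 55681 probes on the array. Of the 10 genes, 9 had a probe that entered the test over 17848 genes, and Mc1r did not. The cells came from male mice that were depilated and then received either acetone, the vehicle, or 7,12-dimethylbenz[a]anthracene (DMBA), a mutagenic polycyclic hydrocarbon, on the skin. Cells were collected 3 days later from 3 mice per group, with 1 array per mouse, and the series concerns stem cell fates in hair greying and melanoma. The sort took epidermal cells with high EGFP from a keratin 15 reporter, high integrin alpha 6 (ITGA6) and no surface Sca1, which the labels call HFSCs/HG, hair follicle stem cells and hair germ. The reporter is driven by a keratinocyte gene and the gate names no melanocyte marker, so the melanocyte genes were read in a population that was not sorted for melanocytes. The strain and age of the mice are not given in the sources used here.

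Melanocytes descend from the neural crest, and their stem cells lie beside the keratinocyte stem cells in the bulge and hair germ of the resting follicle. They are kept and recruited by signals from those neighbours, among them KIT ligand and endothelins. The transcription factors SOX10 and MITF switch on the pigment genes of the lineage. Tyrosinase (Tyr), tyrosinase-related protein 1 (Tyrp1) and dopachrome tautomerase (Dct) are related enzymes that make melanin inside melanosomes, granules that are shaped by the fibrils of PMEL. Dct is switched on early in the lineage, also in melanocyte stem cells, while Tyr and Tyrp1 belong to pigmenting cells.

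The promoters of the 3 enzyme genes are shown because MITF is known to act on all 3 of these related genes. Their log2 fold changes of DMBA over vehicle were 3.35 for Tyrp1, 0.10 for Tyr and -0.05 for Dct, and none passed over all genes. The 3.35 rests on vehicle 1 and vehicle 3, where Tyrp1 was not well above background, and was 1.56 with another background correction (normexp). The 0.10 comes from 1 of 2 Tyr probes, and the other was detected on 1 array only. The promoters shown are RefSeq windows of the build GRCm38.p6, from 250 bases before the transcription start site to 50 bases after it. Each is written 5′ to 3′ on the strand of its gene. The Tyrp1 window is chr4:80833963-80834262 on the plus strand, the Tyr window chr7:87493463-87493762 on the minus strand and the Dct window chr14:118052197-118052496 on the minus strand. Capitals mark GTCATGTGCT, the longest run around CATGTG that all 3 windows share, which was picked for being shared.
Tyrp1: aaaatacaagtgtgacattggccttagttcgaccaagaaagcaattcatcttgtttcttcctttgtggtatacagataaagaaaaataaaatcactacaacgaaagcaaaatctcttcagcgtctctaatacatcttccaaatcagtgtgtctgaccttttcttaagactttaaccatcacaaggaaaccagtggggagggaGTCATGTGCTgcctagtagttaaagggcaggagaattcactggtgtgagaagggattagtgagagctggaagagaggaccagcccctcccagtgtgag
Tyr: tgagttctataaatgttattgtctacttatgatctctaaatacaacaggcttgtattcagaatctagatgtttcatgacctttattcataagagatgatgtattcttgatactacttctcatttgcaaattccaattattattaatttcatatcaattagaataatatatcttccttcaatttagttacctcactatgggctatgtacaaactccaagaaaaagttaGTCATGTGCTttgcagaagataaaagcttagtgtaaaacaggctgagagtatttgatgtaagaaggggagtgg
Dct: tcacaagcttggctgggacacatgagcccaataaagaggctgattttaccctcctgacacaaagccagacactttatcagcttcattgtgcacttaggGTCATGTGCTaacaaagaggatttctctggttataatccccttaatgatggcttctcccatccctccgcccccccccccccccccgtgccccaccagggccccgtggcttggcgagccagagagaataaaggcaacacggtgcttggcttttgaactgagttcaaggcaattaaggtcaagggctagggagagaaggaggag
CATGTG is the core of the M-box, the element through which MITF is known to bind pigment genes. The shared run of 10 bases begins 48 bases before the start site in Tyrp1, 23 bases before it in Tyr and 152 bases before it in Dct. On either strand, 61 of 32851 promoter windows of the same length hold that run, a share of 0.186%. The shorter CATGTG, which lies inside it, was in 14.2% of them and, besides these genes, in Mc1r among the 7 lineage genes with a window. No window was matched for Mlana, Pmel and Sox10. CACGTG, the other common E-box, was in 7.15% of all windows and in 0 of the 10 windows of these 7 genes. These matches describe the letters of the windows and say nothing of binding in these cells.

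Markers of the sorted keratinocytes were detected on every array. All 16 hair follicle stem cell and hair germ markers, among them Krt15, Itga6, Lhx2 and Lgr5, were tested and had probes well above background, the flag by which the scanner software marks a spot that stands clear of local background. Of these 16, 11 had lower and 5 higher DMBA means and 0 passed. Lgr5 (-0.64, SE 0.22), Foxc1 (-1.19, SE 0.46), Sox9 and Tbx1 had all DMBA arrays below all vehicle arrays, against 5.17% of all genes tested, and Lgr6 had them all above. In all, 69.3% to 83.6% of probes were above background, with the 2 lowest shares on the arrays of DMBA 2 and DMBA 3. Leukocyte markers were detected too: of 11 with a probe, 10 were tested, with Cd74 and Cd3e above background on all 6 arrays. Detection alone therefore does not show which cell types the RNA came from. The array of vehicle 1 lay alone on a second slide. Ly6a, the gene of the Sca1 antigen, was higher on the DMBA arrays (0.13 to 0.29) than on the vehicle arrays (-1.78 to -0.20), with 1.45 between the means (SE 0.45; adjusted p = 0.854 with limma). Dcn, the fibroblast proteoglycan decorin, had a log2 fold change of 1.51 (SE 0.25, adjusted p = 0.445 with limma). The part of these shifts in the values below was not tested. In RNA from pooled cells, fewer cells of a type and less RNA per cell cannot be told apart.

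Of the members, Mlana and Tyrp1 showed the largest differences between the groups, both higher after DMBA and neither past the test, and in both the array of vehicle 2 read like the DMBA arrays. For Tyrp1 the readings of vehicle 1 and vehicle 3 are only limits. Mlana, which encodes a melanosome protein also called MART-1, had intensities of 370.3, 3912 and 376 on the arrays of vehicle 1 to 3. Its intensities on the arrays of DMBA 1 to 3 were 2331, 9173 and 5489. Vehicle 2 thus lay among the DMBA arrays, while vehicle 1 and vehicle 3 lay well below all 3 of them. Divided by the 75th percentile of each array and taken to log2, the unit of all values that follow, the vehicle mean of Mlana was -1.32 ± 1.91 (SD, n = 3) and the DMBA mean 1.40 ± 0.63. The log2 fold change was 2.72 (SE 0.95, 95% interval 0.43 to 5.01), or 6.59-fold, and it did not pass over all genes with limma (adjusted p = 0.896). It was 2.07 within the shared slide, that is without vehicle 1, and 3.82 without vehicle 2. Mlana was higher after DMBA in 8 of the 9 pairs of a DMBA and a vehicle array.

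Tyrp1, the oxidase that acts late in the making of brown and black melanin, was likewise lowest on vehicle 1 and vehicle 3, at signals close to the background. Its intensities were 7.64, 173 and 12.1 for vehicle 1 to 3, of which only that of vehicle 2 was well above background. They were 287, 550.0 and 80.5 for DMBA 1 to 3, all well above background. Tyrp1 entered the test through its DMBA arrays, vehicle 1 and vehicle 3 give only upper limits, and vehicle 2 lay above DMBA 3. The means were -6.34 ± 2.41 (SD, n = 3) in vehicle and -2.99 ± 1.50 in DMBA. The fit took the limits of vehicle 1 and vehicle 3 as measured values and gave a log2 fold change of 3.35 (SE 1.32, 95% interval 0.15 to 6.55; adjusted p = 0.942 with limma). This estimate and its interval are therefore no support for a difference. The estimate depended on how background was treated, at 1.56 with the normexp correction, and was 2.41 within the shared slide. It was 4.71 without vehicle 2.

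Pmel, whose protein forms the fibrils on which melanin is laid down, did not follow Mlana and Tyrp1. Its intensities were 511, 2414 and 2987 for vehicle 1 to 3. They were 2886, 1374 and 260.1 for DMBA 1 to 3. On the scaled values, DMBA 1 (1.09) was the highest array and DMBA 3 (-3.03) the lowest, with all vehicle arrays between them. The means were -0.40 ± 1.54 (SD, n = 3) in vehicle and -0.88 ± 2.07 in DMBA, with a log2 fold change of -0.47 (SE 1.20, 95% interval -3.39 to 2.44). Its direction rested on single mice, since it was 0.60 without DMBA 3 and 0.11 without vehicle 3.

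**Figure D1:**
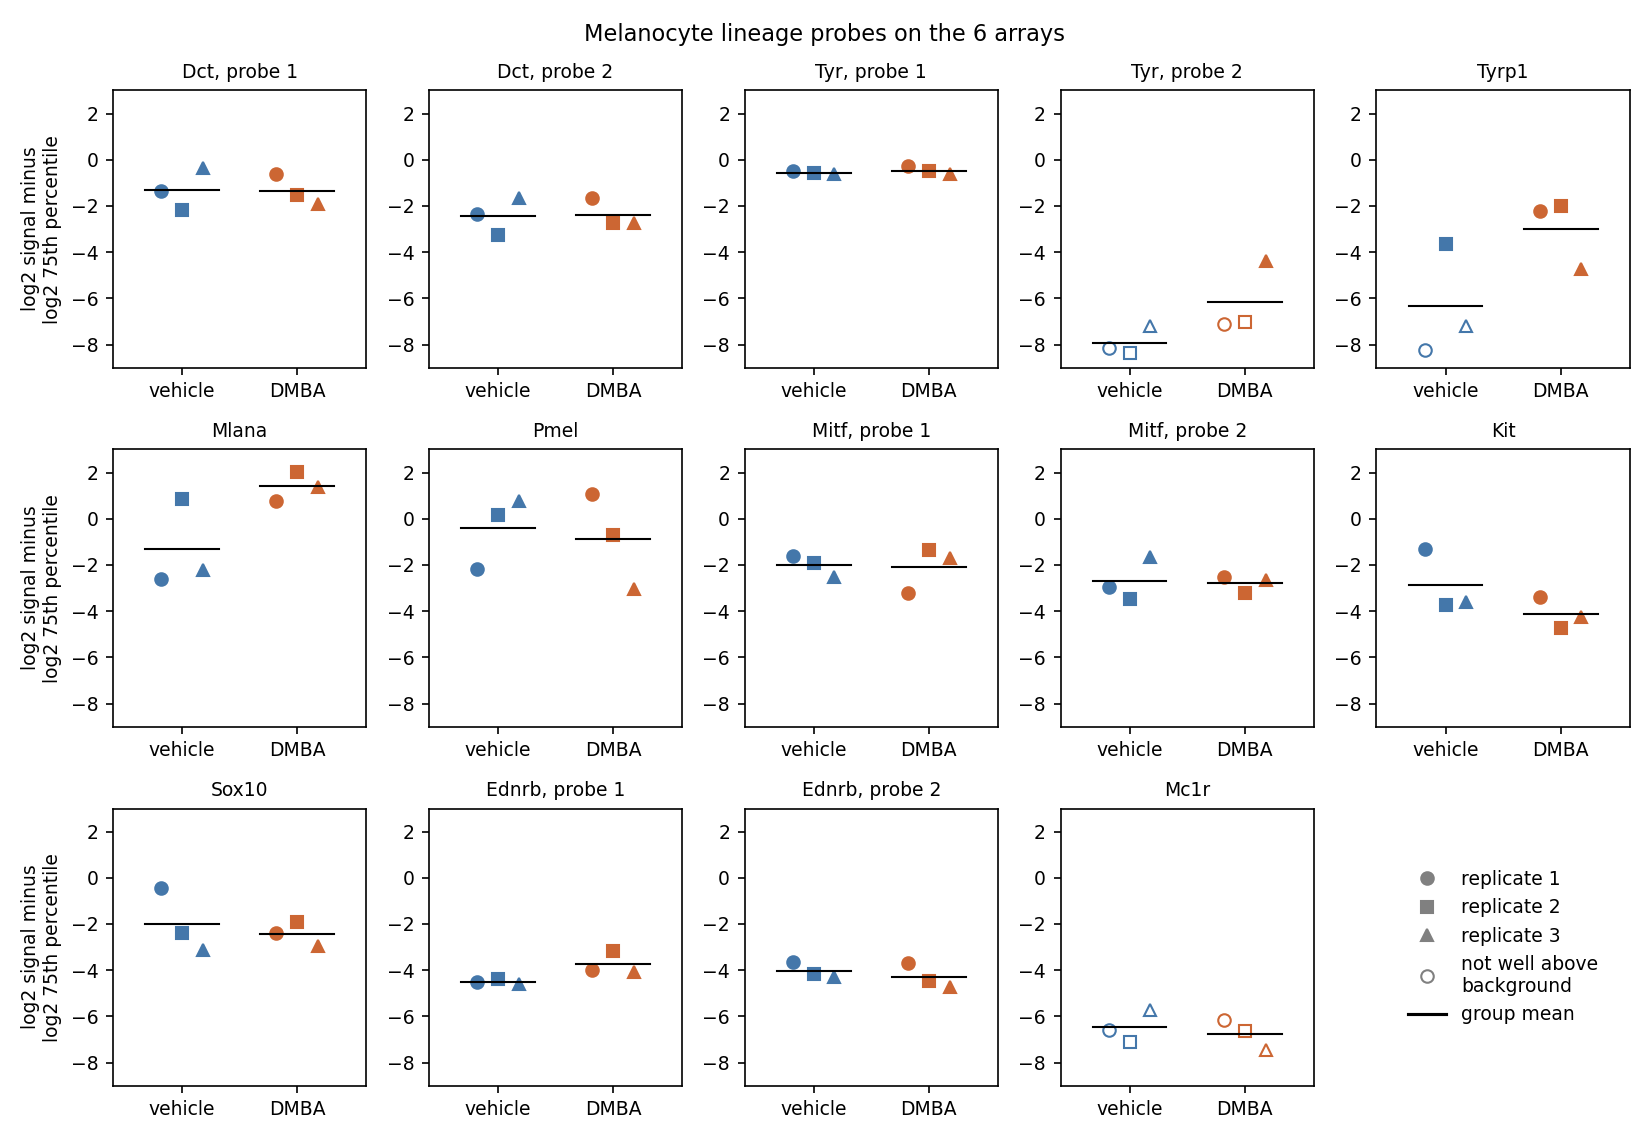
Each panel plots 1 probe, with its log2 intensity over the array's 75th percentile on the vertical axis and the groups on the horizontal axis. Points are mice (circle, square and triangle for replicates 1, 2 and 3), open points were not well above background and lines are group means; vehicle 2 stands with the DMBA arrays for Mlana and Tyrp1, and vehicle 1 stands above the others for Kit and Sox10.

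Of the other pigment enzymes, Dct was read at similar levels in both groups. Dct intensities were 883, 470.4 and 1359 for vehicle 1 to 3. They were 888, 775 and 561 for DMBA 1 to 3. All 3 DMBA readings lay between the lowest and the highest vehicle reading. The log2 fold change was -0.05 (SE 0.56, 95% interval -1.39 to 1.30), so the interval leaves room for a change of 2.46-fold up or, at the other end, to 0.382 of the vehicle level. A second Dct probe gave 0.04 (SE 0.51). The 2 probes ranked the 6 arrays alike (Pearson's r = 0.977, exact permutation p = 0.00139, the smallest such p that 6 arrays allow, and adjusted p = 0.00417 over 3 genes with 2 such probes; Spearman's rho = 1, exact permutation p = 0.00278, adjusted p = 0.00833). Without vehicle 3 and DMBA 1, the arrays farthest from the median, r was 0.907.

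Tyr, the enzyme of the first step of melanin synthesis, was read by 2 probes that disagreed. The first, with 1 spot, read 1611, 1417 and 1136 in vehicle 1, 2 and 3. In DMBA 1, 2 and 3 it read 1112, 1575 and 1384. Relative to the 75th percentile it was the steadiest member, with values from -0.63 to -0.28 over all 6 arrays and a log2 fold change of 0.10 (SE 0.21, 95% interval -0.41 to 0.62). The second, printed at 10 spots per array, was well above background only on the array of DMBA 3. There its 10 spots read from 84.0 to 119, with all 10 well above background. On the other 5 arrays no spot was above background, and the highest single spot read 22.1. Only DMBA 3 measured it, so no fold is given, and the difference between the groups was carried by 1 of 3 mice (adjusted p = 0.707 with limma over all 55681 probes). The array that alone gave signal on the second probe gave -0.62 on the first, close to the lowest value of that probe.

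Neither transcription factor differed between the groups by more than its spread between mice. Mitf, the regulator of the pigment genes, read 748, 559 and 310.0 on vehicle 1, 2 and 3 with its first probe. The same probe read 145, 881 and 650.5 on DMBA 1, 2 and 3. The DMBA readings held both the lowest and the highest value. The log2 fold change was -0.08 (SE 0.54, 95% interval -1.39 to 1.23), and on its second probe -0.09 (SE 0.51). The 2 probes gave the same difference but did not rank the mice alike: Pearson's r was -0.56 (exact permutation p = 0.257, adjusted p = 0.385) and Spearman's rho -0.60 (exact permutation p = 0.242, adjusted p = 0.363), and r was 0.22 without DMBA 1 and vehicle 3. Both probes carry the accession of the same transcript.

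Sox10, which acts upstream of Mitf and Dct and is also made by Schwann cells, was highest on 1 vehicle array. Its intensities were 1654, 411 and 201 for vehicle 1 to 3. They were 259.6, 591 and 275 for DMBA 1 to 3. Vehicle 1 stood above the other 5 arrays, which overlapped. Between the groups this gave a log2 fold change of -0.43 (SE 0.71, 95% interval -2.13 to 1.28) and turned to 0.34 without vehicle 1. Of 12 Schwann cell and nerve markers, 9 were tested. Egr2, a transcription factor of myelinating Schwann cells, and Ncam1, a nerve adhesion molecule, were likewise highest on the array of vehicle 1 (2.03 and -0.41). Sox2 was well above background on no array, and Cdh19 on 1 vehicle array. The summed level of the 9 genes ran from 19.1 to 20.5 in vehicle and from 17.3 to 22.4 in DMBA, in units of the 75th percentile. The part of such cells in the Sox10 reading was not tested.

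Among the receptors, Kit was low in the DMBA group and high in 1 vehicle mouse. Kit, the receptor of stem cell factor on which melanocyte survival and migration depend, had intensities of 923, 160.2 and 158 for vehicle 1 to 3. They were 128, 85.0 and 110.3 for DMBA 1 to 3. Vehicle 1 stood far above every other array, and on the scaled values DMBA 1 (-3.40) lay above vehicle 2 (-3.74) and vehicle 3 (-3.61). The means differed by a log2 fold change of -1.24 (SE 0.73, 95% interval -3.01 to 0.52; adjusted p = 0.993 with limma), or 2.37-fold lower, and it shrank to -0.45 (SE 0.44) without vehicle 1, which is also the value within the shared slide. It was -0.31 with each array's percent of probes detected above background taken as a covariate. Its 2 spots agreed to within 1.12-fold on 5 arrays and differed by 2.40-fold on the array of vehicle 3. KIT also marks mast cells. Of 9 mast cell markers with a probe, Ms4a2, Fcer1a and Mrgprb1 were well above background on no array. Tpsb2, a mast cell tryptase, was above background on all 6 arrays (-2.23 to -1.08), Cma1 on 5, and Mcpt4 and Hdc on 4 each. The summed level of these 4 tested genes ran from 0.400 to 0.577 in vehicle and from 0.424 to 0.540 in DMBA. The part of mast cells in the Kit reading was not tested.

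Ednrb, the endothelin receptor of melanoblasts and melanocyte stem cells, was the 1 tested member whose groups did not overlap, but only on 1 of its probes. That probe read 99.0, 103 and 73.6 on the vehicle arrays and, in the DMBA group, 85.5, 246 and 127. On the scaled values all 3 DMBA arrays (-4.06 to -3.18) lay above all 3 vehicle arrays (-4.58 to -4.37). On that probe the log2 fold change was 0.75 (SE 0.30, 95% interval 0.02 to 1.48), or 1.68-fold, with an adjusted p of 0.942 by limma, and it was 0.47 without DMBA 2. The second probe, assigned to another transcript of the gene, was also above background on every array and gave -0.27 (SE 0.35). The first probe entered the test for its higher mean over all 6 arrays. It was the brighter probe in DMBA (-3.74 against -4.29) but not in vehicle (-4.49 against -4.02), so its DMBA values decided the choice. With the mean of both probes the log2 fold change was 0.24 (SE 0.26). The probes did not rank the arrays alike (Pearson's r = -0.37, exact permutation p = 0.499, adjusted p = 0.499; Spearman's rho = -0.31, exact permutation p = 0.564, adjusted p = 0.564), and r was -0.35 without DMBA 2 and vehicle 3. Of all genes tested, 4.88% had all DMBA arrays above all vehicle arrays and 5.17% had them all below.

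Mc1r, the melanocortin receptor that turns melanin from yellow to black, was well above background on none of the 6 arrays. Its intensities were 23.8, 15.5 and 33.0 in vehicle and 18.8, 22.7 and 12.2 after DMBA, none of them well above background, so it was not tested.

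Over the lineage as a whole, no member passed the threshold of 0.05 on the adjusted p (0 of 9; adjusted p from 0.896 to 1.00 with limma), and the same holds for 0% of the 17848 genes. At an unadjusted p under 0.05, Mlana, Tyrp1 and Ednrb were higher after DMBA and 0 were lower, against 2.73% of all genes higher and 2.49% lower (5.23% in either direction). Tyrp1 entered the test through its DMBA arrays and its values on vehicle 1 and vehicle 3 are limits, so its place in this count is no support for a difference. The same holds for Ednrb, whose tested probe was chosen over its other probe through the DMBA values. Of the 9 genes, 4 were higher and 5 lower, with a median log2 fold change of -0.05 and a mean of 0.52, beside a median of -0.01 and 48.8% higher over all genes. The members were chosen with earlier results known, so the share of 3 in 9 was not tested, and that count fell to 0 without vehicle 1, without vehicle 3, without DMBA 2, and when the detection rate of each array, its percent of probes above background, was a covariate.

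**Figure D2:**
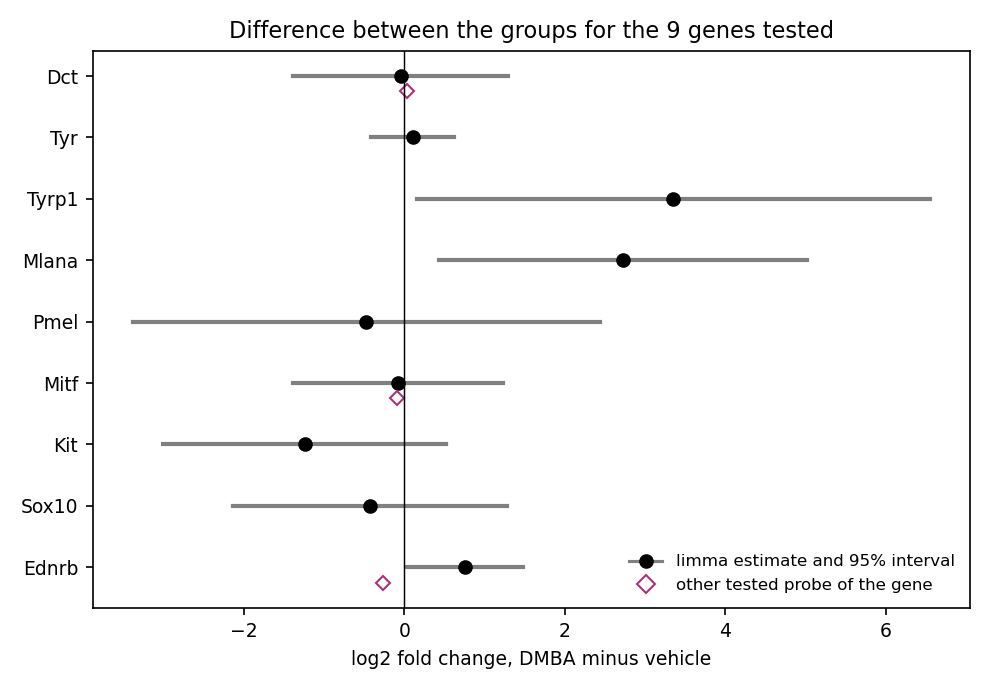
The horizontal axis gives the log2 fold change of DMBA over vehicle for the 9 genes tested; points are limma estimates, bars their 95% intervals and open diamonds the other tested probe of a gene. The intervals of Tyrp1, Mlana and Ednrb lie above 0, the other 6 span it, and the second Ednrb probe lies at -0.27. For Tyrp1 the values of vehicle 1 and vehicle 3 are limits, and the tested Ednrb probe was chosen through its DMBA values, so neither interval is support for a difference.

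The spread between mice of 1 group was wide for most of these genes. The SD within groups was 2.01 for Tyrp1, 1.82 for Pmel and 1.42 for Mlana, where the median was 0.65 in the dimmest, 0.50 in the middle and 0.29 in the brightest tertile of genes, ranked by their mean. Within the middle tertile, 0.622% of genes had a larger SD than Pmel and 2.44% a larger one than Mlana. In the dimmest, 3.73% exceeded Tyrp1, for which 2 of the 6 readings were not well above background. Those 2 readings are limits, so the SD of Tyrp1 is not a measured spread. Sox10, Kit, Dct and Mitf lay at 1.04, 1.08, 0.80 and 0.78. In all, 7 of the 9 genes were above the median of their tertile, and the first probes of Ednrb (0.36) and Tyr (0.13) were below it. For Mlana this was a difference of 11.3-fold between 2 vehicle mice, and for Pmel one of 17.4-fold between 2 DMBA mice.

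**Figure D3:**
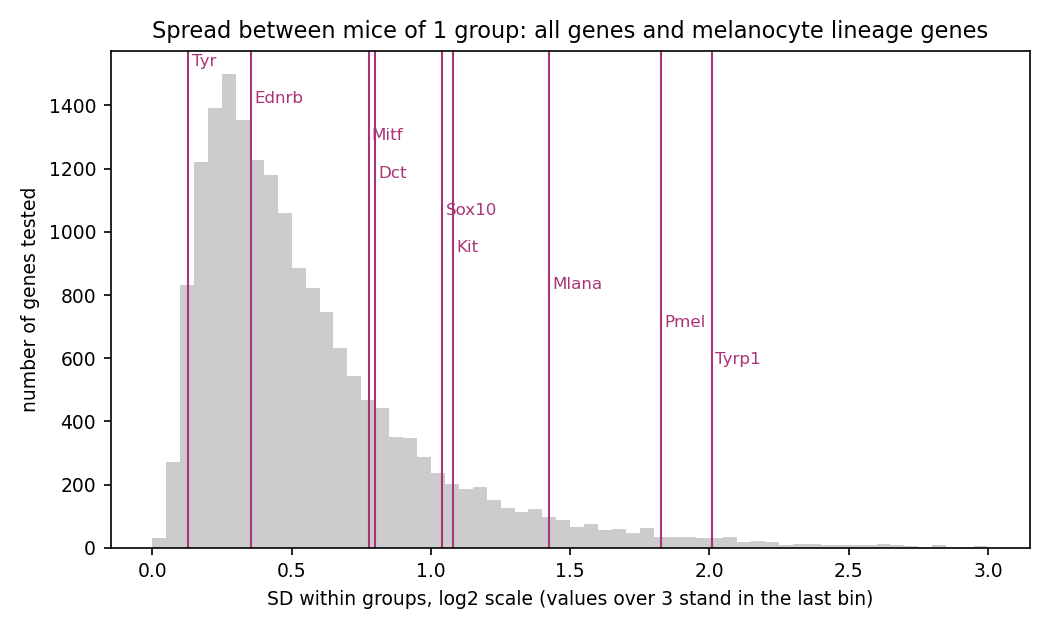
The histogram shows the SD within groups on the log2 scale (horizontal axis) for all 17848 genes tested (vertical axis, number of genes), and lines mark the 9 melanocyte lineage genes. Tyrp1 (2.01), Pmel (1.82) and Mlana (1.42) lie in the right tail, while Ednrb (0.36) lies in the bulk and Tyr (0.13) near the low end.

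Relations between members across mice were of both signs. Among the 36 pairs of tested genes, 17 had a positive and 19 a negative Pearson's r over the 6 arrays, with a median r of -0.02, and 0 passed after adjustment (smallest adjusted p = 0.425, exact permutation; 3 pairs had an unadjusted p under 0.05). Tyrp1 and Mlana had r = 0.916 (exact permutation p = 0.0236) and Spearman's rho = 0.77 (exact permutation p = 0.103, adjusted p = 0.740). That relation rested on vehicle 1 and vehicle 3, where Tyrp1 was not well above background and its values are limits. Without these 2 arrays r was 0.21. With all 6 arrays and the group means removed it was 0.82. Mlana and Kit ran opposite ways, with r = -0.79 (exact permutation p = 0.0153), rho = -0.94 (exact permutation p = 0.0167, adjusted p = 0.600) and r = -0.97 without the same 2 arrays. Their r was -0.67 after the group means were removed. Tyrp1 and Ednrb, the other pair under that level, had r = 0.77 (exact permutation p = 0.0486, adjusted p = 0.513), rho = 0.89 (exact permutation p = 0.0333, adjusted p = 0.600) and r = 0.63 without those arrays. With the group means removed it fell to 0.48. The Tyrp1 limits enter the r of 0.77 and 0.48 too.

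**Figure D4:**
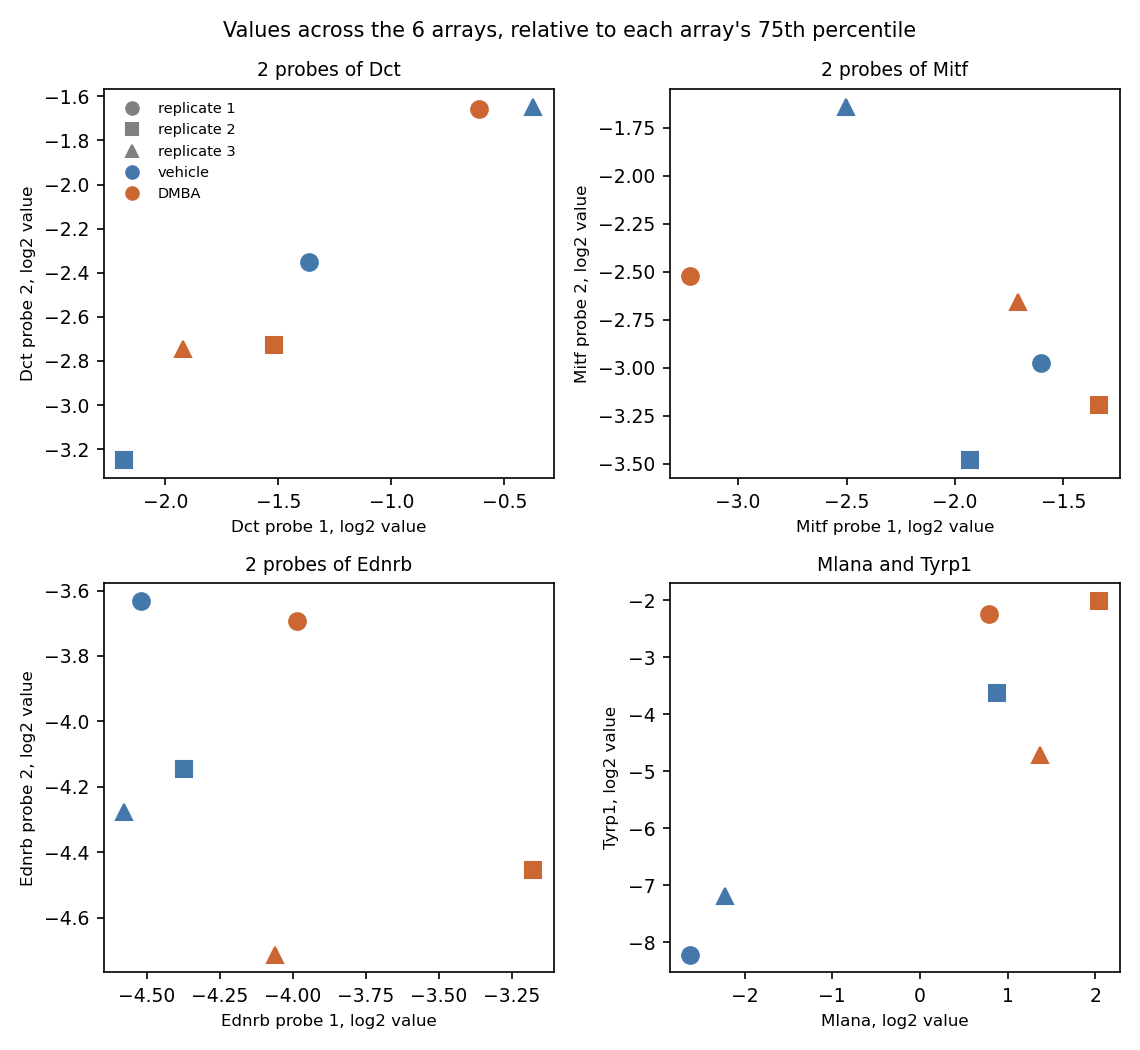
Each panel sets the values of 2 probes against each other over the 6 arrays, on log2 axes scaled to each array's 75th percentile, with colour for the group and shape for the replicate. The 2 Dct probes rise together (r = 0.977), those of Mitf (r = -0.56) and Ednrb (r = -0.37) do not, and for Mlana and Tyrp1 vehicle 1 and vehicle 3 lie apart from the other 4 arrays. On those 2 arrays Tyrp1 was not well above background.

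As a description, the mean of the 9 centred members was highest on DMBA 2 (0.58), DMBA 1 (0.53) and vehicle 2 (0.14) and lowest on vehicle 3 (-0.50), vehicle 1 (-0.42) and DMBA 3 (-0.33). The 6 other genes whose values over the 6 arrays were most like it were Ptgr1, Zdhhc24, Hoga1, Cblif, Gm5129 and Iqcm, with Pearson's r from 0.976 to 0.989. Of 17824 genes compared, 120 had an r above 0.9. The Tyrp1 limits on vehicle 1 and vehicle 3 enter the mean and its low values there. How many unrelated genes would reach such an r over 6 arrays was not tested, so these names show no relation to the lineage.

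The other pigment cell genes also lay on both sides of 0. Of 22 further pigment enzyme and melanosome genes, 18 were tested, of which 7 had higher and 11 lower DMBA means (median difference -0.05), and 0 passed. Gpnmb, a melanosome glycoprotein that macrophages also make, had the smallest p of these (adjusted p = 0.861 with limma). Of the vehicle arrays 1 detected it above background, and of the DMBA arrays all 3, through which it entered the test, so no fold is given. Its vehicle values were -3.42, -8.50 and -8.17, of which the last 2 are limits, and vehicle 1 read close to DMBA 3 (-3.39), whereas Mlana and Tyrp1 were high on vehicle 2. Slc24a5, Atp7a and Mreg, which move ions, copper and melanosomes, had values of -0.50, -0.46 and 0.43. The pigment genes Oca2 and Mlph were well above background on no array, and Gpr143 on 1 vehicle array.

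Of 20 other regulators of melanocytes and the neural crest, 16 were tested, 7 higher and 9 lower, with a median of -0.05, and 0 passed. Snai2, a neural crest factor, and Sox9, which is also a marker of hair follicle stem cells, had log2 fold changes of -0.62 (SE 0.26) and -0.50 (SE 0.24). Both had all DMBA arrays below all vehicle arrays, against 5.17% of all genes tested. Lef1, a partner of beta-catenin, gave 1.51 (SE 0.75) on one probe and 0.31 on another, and Tfap2a 0.75 (SE 0.40) and -0.24. On the first of its probes Tfap2a had all DMBA arrays above all vehicle arrays, against 4.88% of all genes tested. Pax3, which acts with Sox10 on Mitf, was not among the 4 smallest p and is named for its role, after its value was seen: its log2 fold change was 0.58 (SE 0.47). Among 14 tested niche ligands and their antagonists, 8 were higher and 6 lower, with a median of 0.36. Kitl, the ligand of KIT, had a log2 fold change of 0.88 (SE 0.29) with groups that did not overlap. Of all genes tested, 4.88% had such a separation in the same direction. The groups of Kit itself overlapped, and its log2 fold change of -1.24 shrank to -0.45 without vehicle 1. It was -0.31 with the detection rate of each array as a covariate. A relation between Kitl and Kit was not tested. Edn3, a ligand of the receptor that Ednrb encodes, was well above background on no array, while Edn2 had a value of -1.10 (SE 0.32). Tgfb1 had a value of 2.01 (SE 0.61) and Mgrn1, a ligase that dampens MC1R signalling, -1.05 (SE 0.41). None of these 4 ligand and ligase genes passed (adjusted p from 0.813).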

How the data were processed

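RNA of 6 samples was read on 1-colour Agilent arrays with Agilent Feature Extraction 10.7.1.1, per the submitters' processing notes. The deposited scanner files hold spot intensity after background subtraction, per the file headers, and the deposited value table holds intensity divided by about the 75th percentile of each array.
Each processed intensity was divided by its array's 75th percentile over non-control spots and taken to log2. The 3671 control spots were left out, flagged spots were treated as missing (none among the members) and spots of 1 probe were averaged. Probes well above background on at least 3 of 6 arrays (44955 of 55681) were kept. RefSeq accessions were matched to GRCm38.p6 symbols, which named 28331 probes. The files name the build mm9, so no gene coordinates were joined. Each gene was represented by its kept probe of highest mean, and other probes were fitted among all kept probes. DMBA was compared with vehicle with limma 3.58.1 in R 4.3.3 (lmFit, eBayes, two-sided) with Benjamini-Hochberg adjustment over 17848 genes, and the script was tested on simulated data. Levels are not compared between probes, except to choose the probe of a gene. No fold is given for the second Tyr probe, as only DMBA 3 measured it.

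The number of arrays limits precision, and the 75th percentile of intensity was 1355 to 2274. The members and lists were chosen with earlier results of these data known. Named genes were all 10 members, up to 4 genes of smallest p in each list, the genes of the sort gate, Kitl, Edn3 and the 6 nearest genes by r. Pax3, Lhx2, Rab27a, S100b, Slc45a2, Lgr6 and the pigment or marker genes given as detected on 0 or 1 arrays fall outside this rule and were chosen after their values were seen. The alternatives were normexp background correction on median signals, as the files used here hold no mean signal, quantile normalization, the deposited value table, 2 other filters, the mean of probes, single probes, replicate and slide blocks, a covariate and leaving out each array.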

Additional observations from a re-analysis of the deposited data

Results flagged for a closer look

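The second Tyr probe stood outside the test over all genes, because it was well above background on 1 array. It gave signal on an array of the DMBA group (mean 102.5 over 10 spots on DMBA 3) and on no vehicle array, where the highest spot read 17.7. Groups of 3 mice were too small for a check of single samples that stand apart.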

How the results depend on the processing

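No member passed the threshold over all genes under any alternative run, and over all genes the count of 0 became 1 only when vehicle 2 was left out (0 to 1 over the arrays left out). The count of members at an unadjusted p under 0.05 was 3. It was 0 with slide as a block and 0 with the detection rate of each array as a covariate, and 0 to 2 when an array was left out. It was 2 with normexp, with quantile normalization, without the filter on dim probes and with the mean of all kept probes. Tyr, Tyrp1, Mlana and Kit kept their direction under every alternative run. Dct turned to 0.018 with the covariate and 0.039 on its other probe, and ran from -0.48 to 0.42 when an array was left out, with positive values without vehicle 3, DMBA 2 (0.039) or DMBA 3 (0.24). Mitf turned to 0.0083 with normexp and 0.13 with slide as a block or without vehicle 1, and ran from -0.45 to 0.49 when an array was left out. Pmel ran from -1.46 to 0.60, with 0.11 without vehicle 3, and Sox10 from -0.998 to 0.34, the latter with slide as a block or without vehicle 1. Ednrb turned to -0.27 on its other probe. Other probes were an alternative chosen after seeing the data. The causes were not tested. Replicates of the same number did not deviate together (r = 0.02, -0.02 and 0.06), and with the replicate block the count of members at an unadjusted p under 0.05 was 3, with Kit in place of Ednrb. No pair of members passed under the other scalings. Tyrp1, Gpnmb, Rab27a and the second Tyr probe lay near background, where values on undetected arrays are limits.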

Other observations

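Rab27a, which tethers melanosomes for transport and was picked out after its values were seen, was detected above background on 1 array of the vehicle group and all 3 of the DMBA group. It read -6.43, -0.34 and -5.77 on vehicle 1, 2 and 3. On DMBA 1, 2 and 3 it read -2.68, -2.75 and -1.82, so that vehicle 2 was its highest array and vehicle 1 and vehicle 3 its lowest, which were also the lowest for Mlana and Tyrp1. The readings of the 2 undetected vehicle arrays are limits. S100b, a protein of Schwann cells and melanocytes, ran from -5.43 to -2.91 in vehicle and from -4.83 to -0.76 in DMBA. It was highest on DMBA 2, as Mlana and Tyrp1 were, but lowest on vehicle 2 and next lowest on DMBA 1, where both of those were high. Slc45a2, a transporter of pigment cells, had a log2 fold change of 0.01 (SE 0.67) and was detected in 2 vehicle mice and 1 DMBA mouse.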
